A study of Mus musculus with 36 samples.

Results

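Reprogrammed photoreceptor-like cells, called CiPC in the labels and taken at day 11, were compared with reprogramming intermediates taken at day 8. The comparison rests on 6 of the 33 RNA sequencing libraries in the table, 3 of each group, and on 13792 tested genes of the 15289 listed. Both groups began as mouse embryonic fibroblasts (MEF) of an Nrl-GFP strain, in which green fluorescent protein reports activity of the promoter of Nrl, which encodes the factor that sets rod fate. The cells received 5 chemicals, not named in the labels, in a medium for photoreceptor induction, and differed in the day of collection, 8 or 11. The labels state that cells were sorted on the reporter before RNA isolation and that each sample held 80 ng of total RNA. They do not say which gate was used for the day 8 cells. Time and sort therefore cannot be told apart, and the level of Nrl itself, whose promoter drove the sort, is a check and not a result. No source used here says that replicates came from separate cultures, so p-values cover only variation among these libraries, some or all of it possibly technical. Levels in MEF, day 5 intermediates and rods of postnatal day 5 (P5), each with 3 libraries, are given beside some results as a description. MEF were grown in another medium, IMR90. Rods of postnatal day 3 were not analysed here.

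Photoreceptors are the light-sensing neurons of the retina. Progenitors that express eye field factors such as Pax6, Six3, Six6 and Rax leave the cell cycle, turn on Otx2 and Crx, and become rods where Nrl and its target Nr2e3 are active. Rods then make the phototransduction cascade, the stacked discs of the outer segment and a ribbon synapse. Fibroblasts lack these programmes and instead secrete collagens and other matrix proteins, carry positional Hox codes, and can take on contractile or fat-storing states.

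Column sums of the normalized CPM table were 1005445 to 1010087 at day 8 and 819893 to 824208 in CiPC. The 10 most abundant genes held 12.9% to 13.3% of a day 8 library and 5.92% to 6.42% of a CiPC library. Mitochondrially encoded genes held 5.40% to 7.06% at day 8 and 4.79% to 5.34% in CiPC. Across tested genes the correlation between libraries was at least 0.992 within day 8 and 0.990 within CiPC, and at most 0.702 between the groups. The depth behind the values is unknown.

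The CiPC had gained retinal, neuronal and contractile transcripts relative to day 8, and had lost matrix, adipocyte, muscle, acute phase and Hox transcripts. In the limma test, 2103 genes (15.2% of those tested) were higher in CiPC and 2289 (16.6%) were lower, at an adjusted p under 0.05 and a change of at least 2-fold. Every count of list members below stands beside these shares. Each change is the CiPC mean minus the day 8 mean of log2(CPM + 1), ± SE, with n = 3 per group, and understates the change of genes near 0. Rose and fell mean that both limits were met, and a gene that did not pass may still differ by less than 2-fold. The median change over all genes tested was -0.04. When each library was rescaled to the same sum, the median moved to 0.24 and the split of called genes from 47.9% to 60.2% higher, so changes near 0 depend on the scaling. Of the called genes, 494 were at least 8-fold higher in CiPC and 584 at least 8-fold lower, as folds of CPM + 1. For 10606 genes (76.9%) the values of the groups did not overlap. CPM is not scaled by transcript length, so levels are compared between groups for 1 gene and not between genes.

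**Figure D1:**
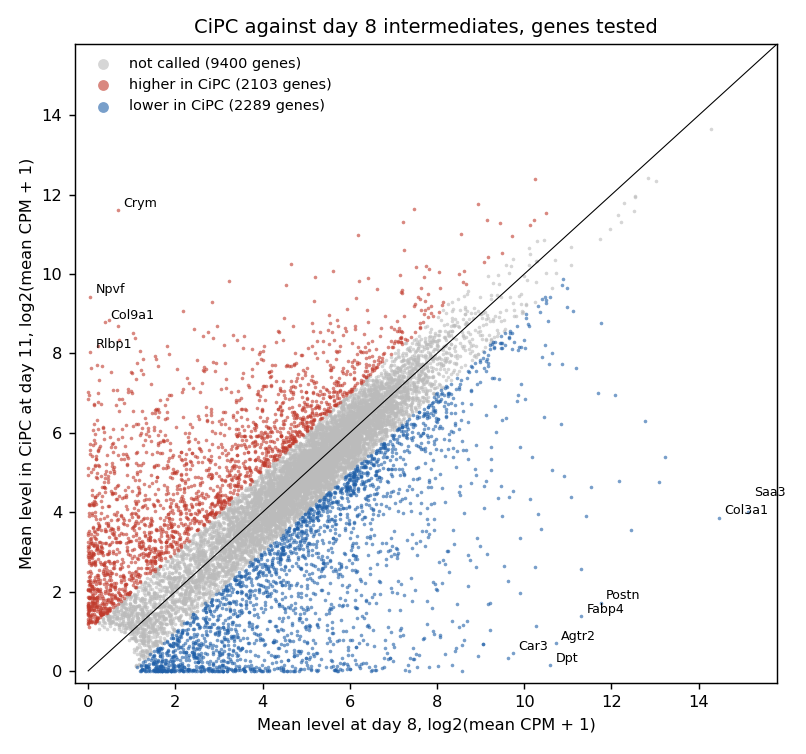
Mean level of each tested gene at day 8 (x axis) and in CiPC (y axis), both as log2(mean CPM + 1), with the line of equal levels; red and blue mark the 2103 higher and 2289 lower genes. Crym, Npvf, Col9a1 and Rlbp1 lie near 0 on the day 8 axis, and Saa3, Col3a1, Dpt and Agtr2 lie low on the CiPC axis.

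Many changes ran from near absence to clear expression. In 158 genes every day 8 library was under 1 CPM and every CiPC library at 10 CPM or more. Of these, 81 were also under 1 CPM in each MEF and day 5 library, 8 were at 10 CPM or more in every MEF library, and 104 reached 10 CPM in every P5 rod library. The opposite switch occurred in 218 genes. Among these, 85 had been under 1 CPM in every MEF library, 10 under 1 CPM in both MEF and day 5 cells, 52 were at 10 CPM or more in MEF, and 0 reached 10 CPM in all P5 rod libraries.

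Crym, a thyroid hormone-binding crystallin (chr7:120186380-120202111, minus strand, GRCm38), rose most. It was at 0.505, 0.475 and 0.815 CPM at day 8 and at 3198, 3069 and 3072 CPM in CiPC, a change of 10.93 ± 0.087 (adjusted p = 3.56e-11). Its P5 rod level was 80.0 CPM, so the CiPC stood far above both their intermediates and these rods. Npvf, the precursor of RFamide neuropeptides, was listed at 0, 0 and 0.0925 CPM at day 8 and at 671, 686 and 713 CPM in CiPC. P5 rods held 0.804 CPM of it. Col9a1, a chain of type IX collagen found in cartilage and the vitreous, rose from 0.308 ± 0.107 to 441 ± 57.2 CPM (mean ± SD), and Rgs8, a regulator of G protein signalling, from 0.381 ± 0.172 to 459 ± 15.5 CPM. Cspg5, a neural proteoglycan, changed by 8.01 ± 0.10, Slc35f1, a membrane transporter homologue, by 7.98 ± 0.13, and Hkdc1, a hexokinase relative, by 7.57 ± 0.11. F5, coagulation factor V, changed by 7.48 ± 0.082 and Olfm2, a secreted olfactomedin, by 7.33 ± 0.19. Plekhb1, a membrane-associated protein abundant in photoreceptors, changed by 7.67 ± 0.12 with a P5 rod level of 1894 CPM. Rlbp1, Gnb3, Pax6 and Six3 were also among the 15 strongest rises and are described with their groups.

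Most photoreceptor transcription factors in the list were higher in CiPC. At day 8, 10 of the 18 had a mean of at least 1 CPM, and in CiPC 15 had. Of 18 factors in the list, 11 rose, 2 fell, 3 did not pass and 2 were under the expression filter. The median change was 2.83 over the members in the table, against -0.02 over all 15289 genes. Otx2, the homeobox factor upstream of Crx, was at 0, 0.183 and 0.101 CPM at day 8 and at 75.8, 73.5 and 72.9 CPM in CiPC (change 6.10 ± 0.10, adjusted p = 2.93e-10). Crx, its photoreceptor-specific relative, was at 0.993, 0.438 and 0.456 CPM and then at 97.8, 94.5 and 86.8 CPM. The groups were far apart for both factors, while P5 rods held more of each, 605 CPM of Otx2 and 1663 CPM of Crx. Samd7, a Polycomb-associated repressor in rods, changed by 5.33 ± 0.12 and Neurod1, a basic helix-loop-helix factor of photoreceptors, by 5.15 ± 0.11. Nrl was at 0.182, 0.232 and 0.0507 CPM at day 8 and at 30.9, 30.4 and 30.7 CPM in CiPC, the check of the sort. Nr2e3, the nuclear receptor that represses cone genes in rods, was at 0.339, 0.138 and 0 CPM and then at 21.4, 20.5 and 20.4 CPM. Moving the other way, Mef2c, a MADS box factor also active in muscle and mesenchyme, fell from 18.6 ± 3.14 to 1.18 ± 0.115 CPM. Rxrg, a retinoid X receptor of cones, fell from 10.1 ± 0.741 to 0.443 ± 0.099 CPM and had been at 1.05 CPM in MEF.

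The rod phototransduction cascade appeared broadly. A member near 0 at day 8 passed the filter through CiPC alone and could be called only as a rise. Of the 23 rod genes, 7 had a mean of at least 1 CPM at day 8 and 21 in CiPC, and of 16 bipolar genes 2 and 12, so shares of tested members in the retinal lists are no support. Of 23 listed members 17 rose, 0 fell, 4 did not pass and 2 were under the filter, with a median change of 3.08 over the members in the table. Sag, rod arrestin (chr1:87803680-87845158, plus strand), was at 2.14, 1.96 and 2.13 CPM at day 8 and at 90.5, 88.8 and 91.8 CPM in CiPC (change 4.89 ± 0.080, adjusted p = 2.89e-10). Pdc, phosducin, which binds transducin beta-gamma subunits, was at 0.369, 0.248 and 0.166 CPM and then at 61.6, 68.5 and 79.9 CPM. Cngb1, the modulatory subunit of the rod cGMP-gated channel, was at 0.052, 0.0705 and 0.0904 CPM at day 8 and at 32.2, 34.4 and 33.0 CPM in CiPC. Every CiPC library stood above every day 8 library for these genes. Pde6g, the inhibitory subunit of rod phosphodiesterase, changed by 4.82 ± 0.10, and Rcvrn, recoverin, rose from 0.103 ± 0.0474 to 17.3 ± 1.14 CPM. The 4 that did not pass, named after their values were seen, were Gnat1, Gnb1, Gnb5 and Guca1b. Gnat1, rod transducin alpha, was at 1.6 CPM at day 8 and at 2.88 CPM in CiPC, and Guca1b, a guanylate cyclase activator, at 0.468 and 1.39 CPM. Gnb1 and Gnb5 are beta subunits made by many cells, and Gnb1 was at 280.5 CPM at day 8 already.

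The bases upstream of the start are shown for 3 of these members, picked for having risen and for holding the match described next. TAATCC, the core recognised by the homeodomains of Crx and Otx2, was searched on both strands (GGATTA on the other) in the 250 bases before each start of RefSeq promoters on GRCm38.p6. It was present in 10 of 18 windows (55.6%) of the 16 rod phototransduction genes with a window and in 4 of 19 windows (21.1%) of the outer segment genes. Over all 32841 promoter windows of that length the share was 6.25%. A match describes letters only, the list shares cover members whether or not they rose, and several genes have more than 1 window. A link between the match and the changes was not tested. Capitals mark the match, sequences run 5′ to 3′ on the strand of the gene, and each stops before the annotated transcript. In Sag (chr1:87803430-87803679, plus strand) the match began 87 bases before the RefSeq start. In Cngb1 (chr8:95306586-95306835, minus strand) the matches began 58 and 25 bases before it. For Gucy2e (chr11:69237037-69237272, minus strand), the guanylate cyclase that remakes cGMP, the distance was 42 bases.
Sag: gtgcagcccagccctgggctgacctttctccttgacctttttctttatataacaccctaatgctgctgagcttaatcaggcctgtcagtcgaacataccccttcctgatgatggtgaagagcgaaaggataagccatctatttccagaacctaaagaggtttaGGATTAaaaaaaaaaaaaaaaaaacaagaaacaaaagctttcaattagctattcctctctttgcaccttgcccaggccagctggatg
Cngb1: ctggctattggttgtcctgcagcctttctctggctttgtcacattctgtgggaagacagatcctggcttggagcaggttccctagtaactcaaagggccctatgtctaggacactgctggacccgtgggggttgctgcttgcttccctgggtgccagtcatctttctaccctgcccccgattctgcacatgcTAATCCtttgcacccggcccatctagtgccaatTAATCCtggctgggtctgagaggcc
Gucy2e: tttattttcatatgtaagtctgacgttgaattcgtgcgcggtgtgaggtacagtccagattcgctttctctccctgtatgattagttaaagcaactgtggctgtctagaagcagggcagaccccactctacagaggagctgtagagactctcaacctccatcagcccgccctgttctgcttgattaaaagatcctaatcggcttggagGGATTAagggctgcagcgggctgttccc

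Genes of the outer segment, the cilium-borne stack of discs that holds the visual pigment, changed alike. Of 22 listed genes 20 were in the table, 18 rose, 0 fell, 1 did not pass and 1 was under the filter. Cdhr1, a cadherin at the base of the outer segment, was at 0.603, 0.525 and 0.291 CPM at day 8 and at 128, 133 and 141 CPM in CiPC (change 6.52 ± 0.11). Prph2, the disc rim protein peripherin 2, was at 0.444, 0.123 and 0.276 CPM and then at 61.6, 58.4 and 48.3 CPM. Both genes were low in each day 8 library, and P5 rods exceeded CiPC in each, at 1558 and 1551 CPM. Crb1, an apical polarity protein of photoreceptors and Müller glia, changed by 5.53 ± 0.16. The gene that did not pass, singled out after its value was seen, was Spata7, a transition zone protein of the photoreceptor cilium, at 5.98 and 5.92 CPM.

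Cilium genes of the next list are used by all ciliated cells. Of the cilium transport and transition zone genes, 3 of the 29 tested rose and 1 fell, shares below the 15.2% and 16.6% of all genes. After rescaling 6 rose and 0 fell. Rpgr, a GTPase regulator of the photoreceptor connecting cilium, rose from 3.69 ± 0.275 to 12 ± 1.85 CPM, Kif3a, a kinesin of anterograde transport, by 1.38 ± 0.087 and Ift43 by 1.26 ± 0.079. Ift46 changed by -1.04, which lost its 2-fold size under quantile normalization (-0.999), under the rescaled sums (-0.75) and without CiPC replicate 2 (-0.99).

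Cone genes and synapse genes rose as well. Of 13 cone genes 8 rose and 5 were under the filter, which most of the 8 passed through their CiPC level alone. Gnb3, the transducin beta subunit of cones and ON bipolar cells, was at 0.41, 0.345 and 0 CPM at day 8 and at 214, 205 and 192 CPM in CiPC. Gucy2e rose from 0.0523 ± 0.0905 to 7.07 ± 0.803 CPM and Gnat2, cone transducin alpha, from 0.297 ± 0.109 to 8.27 ± 0.686 CPM. Ccdc136, a coiled-coil protein, had been at 8.52 ± 2.77 CPM and reached 37.8 ± 1.35 CPM. The 5 under the filter, named after their values were seen, include Arr3, cone arrestin, whose highest CiPC library held 0.443 CPM, and Opn1mw, the medium-wavelength opsin, with 0.104 CPM. In the ribbon synapse list, 14 of 20 rose, 0 fell, 3 did not pass and 3 were under the filter. Cplx3, a ribbon complexin, was at 0.0256, 0.0779 and 0.0574 CPM at day 8 and at 36.7, 31.4 and 26.3 CPM in CiPC. Slc17a7, the vesicular glutamate transporter VGLUT1, changed by 4.69 ± 0.13, Cacna2d4, a calcium channel subunit, by 4.46 ± 0.12 and Pclo, the active zone scaffold piccolo, by 4.37 ± 0.11.

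**Figure D2:**
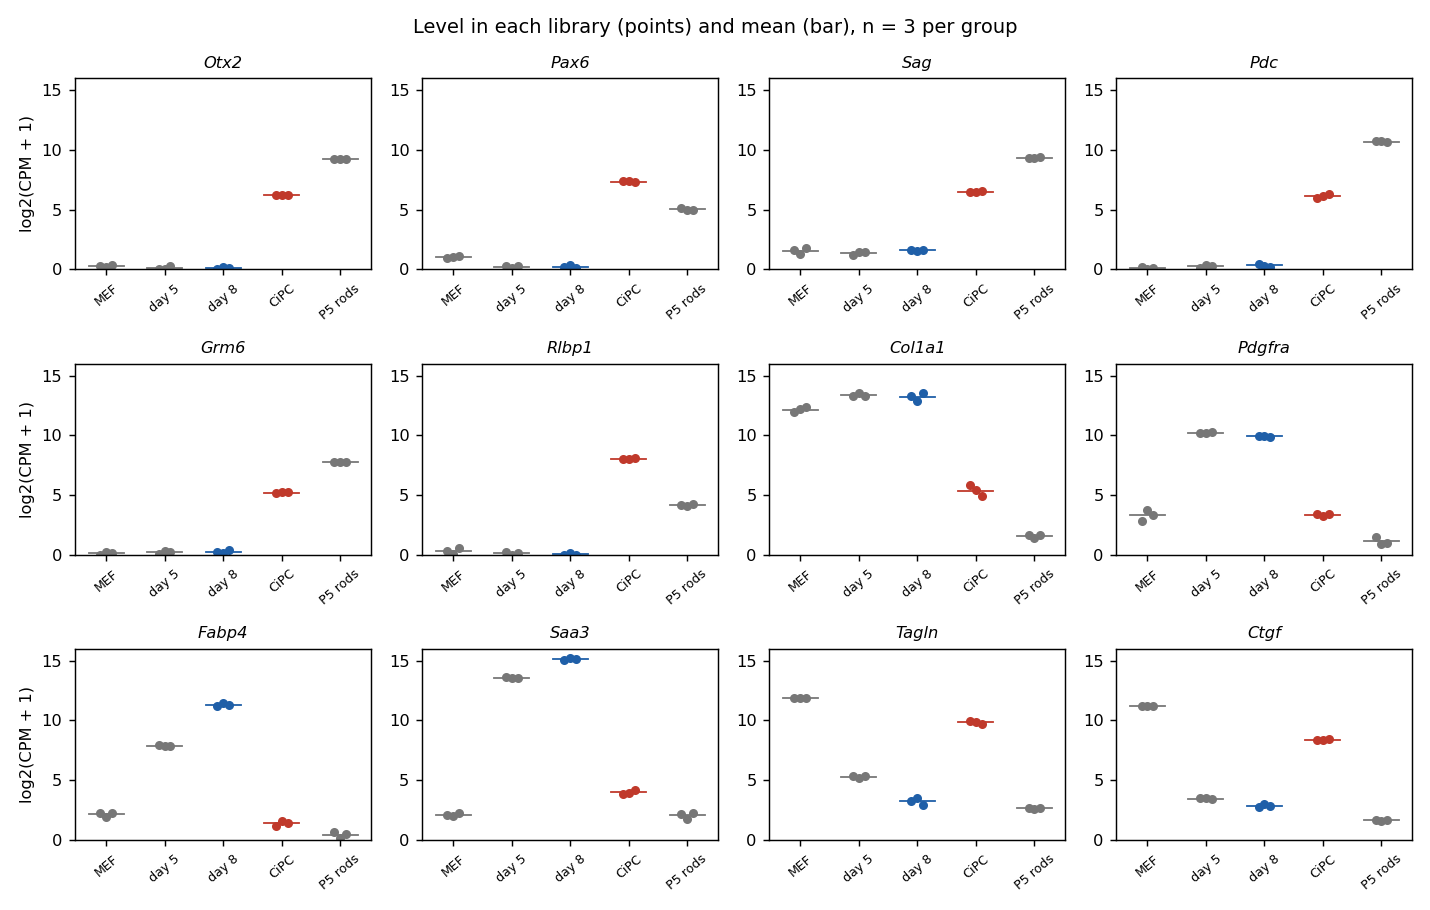
Level of 12 genes in each library (points) and group mean (bars) as log2(CPM + 1), for MEF, day 5, day 8, CiPC and P5 rods, with n = 3 per group. Otx2, Pax6, Sag, Pdc, Grm6 and Rlbp1 are low until CiPC, Col1a1, Pdgfra, Fabp4 and Saa3 drop between day 8 and CiPC, and Tagln and Ctgf are high in MEF, low at days 5 and 8 and higher again in CiPC.

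Eye field and retinal progenitor factors, which precede photoreceptors in development, were among the strongest changes. Of 20 listed genes 17 rose, 1 fell, 1 did not pass and 1 was under the filter, with a median change of 4.25. Pax6, the paired box factor of the eye field (chr2:105668900-105697364, plus strand), was at 0.143, 0.299 and 0.0959 CPM at day 8 and at 164, 164 and 155 CPM in CiPC (change 7.10 ± 0.098, adjusted p = 1.24e-10). Six3, an eye field homeobox factor, was listed at 0 in all day 8 libraries and at 134, 128 and 128 CPM in CiPC. Nr2e1, a nuclear receptor that keeps progenitors dividing, changed by 6.12 ± 0.097 and Six6 by 5.32 ± 0.11. Levels of Pax6 and Nr2e1 in P5 rods were 32.1 and 3.35 CPM, lower than in CiPC. Sfrp2, a secreted Wnt modulator made by progenitors and also by fibroblasts, fell from 409 ± 33.6 to 1.4 ± 0.107 CPM, and had been at 685 CPM at day 5.

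Neurogenic factors changed in part. Of the 17 genes found, 8 rose, 1 fell, 5 did not pass and 3 were under the filter. Neurod4 rose from 0.0771 ± 0.0374 to 66.2 ± 3.83 CPM, Myt1, a zinc finger factor of newborn neurons, by 4.29 ± 0.16 and Insm1, which drives exit from division, by 4.12 ± 0.094. Ebf1, a helix-loop-helix factor of adipocyte and stromal lineages, fell from 62.2 ± 2.32 to 3.45 ± 0.733 CPM. The Notch pathway, by which progenitors hold each other back from differentiation, had 9 of 20 members that rose, 3 that fell, 5 that did not pass and 3 under the filter. Lfng, a glycosyltransferase that tunes Notch receptors, rose from 0.994 ± 0.33 to 127 ± 28.3 CPM and Hes1, a repressor induced by Notch, from 4.06 ± 0.918 to 73.9 ± 5.8 CPM. Nrarp, a feedback target, changed by 4.14 ± 0.10, and Hes5 was listed at 0 in each day 8 library and at 11.3, 8.89 and 5.31 CPM in CiPC. Members that fell were Dlk1, a non-canonical ligand that restrains adipocyte differentiation, from 532 ± 86.7 to 0.589 ± 0.165 CPM, Jag1, a canonical ligand, changed by -1.49 and Notch3, a receptor of mural cells, by -1.45.

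Transcripts of other retinal cell types stood beside those of photoreceptors. In Müller glia genes, 12 of 18 rose, 4 fell and 2 did not pass, and the summed level of the list went from 1886 to 2175 CPM at day 8 to 4315 to 4479 CPM in CiPC. Rlbp1, the retinaldehyde-binding protein (chr7:79374870-79387048, minus strand), was listed at 0, 0.0947 and 0 CPM at day 8 and at 258, 258 and 273 CPM in CiPC. The P5 rod level was 16.8 CPM. Kcnj10, the potassium channel of glial endfeet, was at 0.136, 0.311 and 0.0481 CPM and then at 107, 107 and 112 CPM. Gpr37, an orphan receptor of glia, changed by 6.37 ± 0.095 and Mlc1, a glial membrane protein, by 5.69 ± 0.10. The strongest falls were Slc6a13, a GABA transporter also made by meningeal and liver cells, from 45.8 ± 2.15 to 0.674 ± 0.102 CPM, Abca8a, a lipid transporter, changed by -3.39, and Apoe, apolipoprotein E, by -2.07.

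Bipolar cell genes had 10 of 16 that rose, 0 that fell, 2 that did not pass and 4 under the filter, and their summed level went from 42.8 to 47.8 CPM at day 8 to 196 to 219 CPM in CiPC. Grm6, through which ON bipolar cells sense glutamate, was at 0.13, 0.0689 and 0.291 CPM at day 8 and at 34.4, 36.6 and 35.9 CPM in CiPC. Lhx4 changed by 4.48 ± 0.11, Trpm1, the channel that Grm6 controls, by 4.35 ± 0.18 and Pcp2, a G protein modulator, by 4.06 ± 0.23. P5 rods, sorted from retina, also held Grm6, at 215 CPM. For amacrine, horizontal and ganglion cells, 9 of 15 genes in the table rose, 1 fell, 1 did not pass and 4 were under the filter. Prox1, a homeobox factor of horizontal cells and progenitors, rose from 1.15 ± 0.253 to 164 ± 4.27 CPM. Calb1, the calcium buffer calbindin, changed by 3.83 ± 0.12, Tfap2b by 2.64 ± 0.097 and Gad2, which makes GABA, by 2.56 ± 0.11, while Rbpms, an RNA-binding protein of ganglion and smooth muscle cells, changed by -1.70. Pan-neuronal genes rose in 14 of 22, with 1 that fell. Syt1, the calcium sensor of vesicle release, was at 1.14, 0.659 and 1.24 CPM at day 8 and at 169.7, 181 and 191 CPM in CiPC. Scg2, a secretory granule protein, changed by 6.18 ± 0.11, Map2, a dendrite microtubule protein, by 4.94 ± 0.12 and Uchl1, a neuronal ubiquitin hydrolase, by 4.56 ± 0.17. Nefm, a neurofilament, fell from 66.3 ± 3.49 to 6.52 ± 0.683 CPM. In these bulk samples fewer cells of a type and less RNA per cell cannot be told apart, nor can cells of several types from cells that hold transcripts of several.

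**Figure D3:**
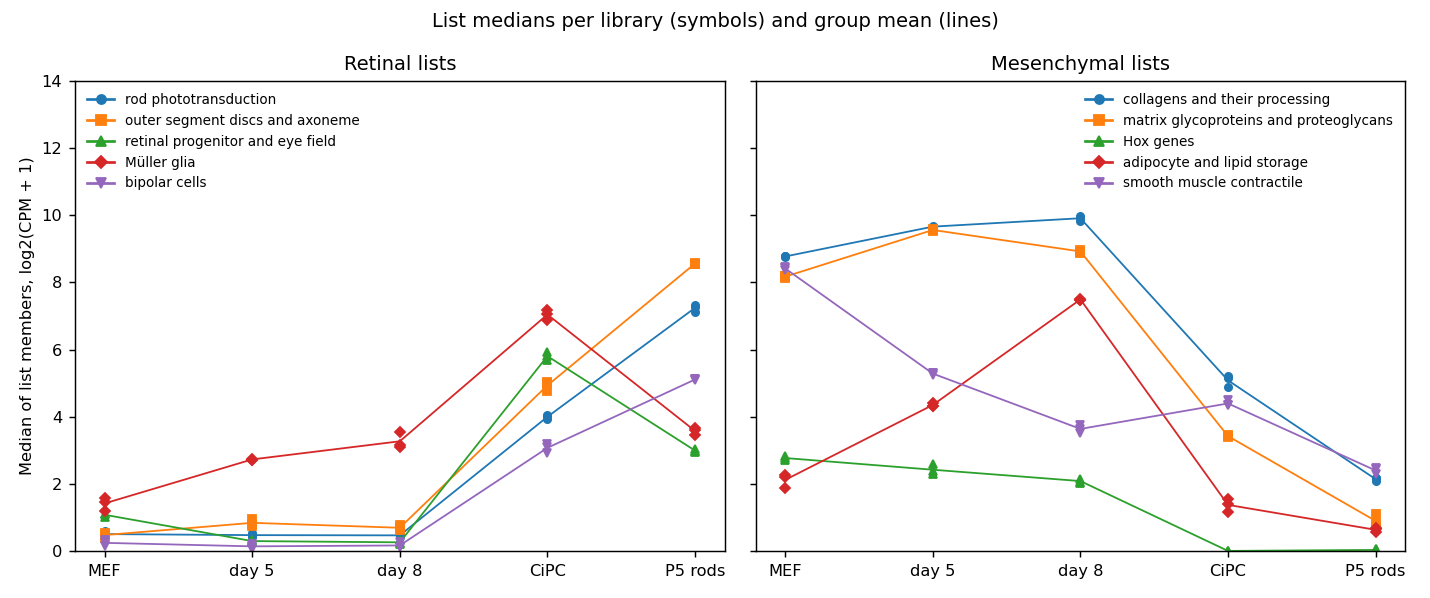
Median level of list members in each library (symbols) with group means (lines), as log2(CPM + 1) over members in the table, for 5 retinal and 5 mesenchymal lists in MEF, day 5, day 8, CiPC and P5 rods. Retinal lists climb most between day 8 and CiPC, though the Müller glia list also climbs from MEF to day 8. Adipocyte genes peak at day 8, and contractile genes fall from MEF to day 8 and are higher in CiPC.

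The fibroblast programme fell over the same interval. In this and the next lists, a member near 0 in CiPC passed the filter through day 8 alone and could be called only as a fall. Among collagens and the enzymes that process them, 22 of 26 fell, 2 rose and 2 did not pass (median change -4.07). Col1a1, which encodes a type I collagen chain, was at 9806, 7409 and 11525 CPM at day 8 and at 55.2, 40.3 and 28.1 CPM in CiPC (change -7.86 ± 0.24, adjusted p = 8.02e-09). Col3a1, of type III collagen, was at 21930, 23651 and 22511 CPM and then at 11.9, 12.3 and 16.5 CPM. Both had been abundant in MEF, at 4545 and 838 CPM. Col15a1 changed by -9.16 ± 0.14, Col1a2 by -8.34 ± 0.12 and Adamts2, which trims procollagen, by -7.94 ± 0.12. Against the list, Col8a1, of type VIII collagen, was at 1.11, 1.42 and 1.29 CPM at day 8 and at 275, 266 and 261 CPM in CiPC, with 807 CPM in MEF. Plod2, a lysyl hydroxylase, rose by 1.84 ± 0.094.

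Of 22 matrix glycoproteins and proteoglycans 16 fell, 1 rose, 4 did not pass and 1 was under the filter. Dpt, dermatopontin (chr1:164796644-164824266, plus strand), was at 1525, 1625 and 1502 CPM at day 8 and at 0.0376, 0.134 and 0.135 CPM in CiPC. MEF held 0.51 CPM. Postn, periostin, fell from 3447 ± 239 to 2.29 ± 0.615 CPM, Dcn, decorin, from 5571 ± 431 to 10.7 ± 0.887 CPM and Thbs2, a thrombospondin, changed by -6.89. The member that rose was Tnc, tenascin C, an adhesion-modulating glycoprotein. Proteases and their inhibitors fell in 12 of 20 and rose in 2. Mmp13, a collagenase, fell from 598 ± 36.7 to 1.06 ± 0.131 CPM, Mmp2 changed by -7.54, Mmp3 by -7.16 and Pappa, a protease of growth factor binding proteins, by -4.77. Plat, tissue plasminogen activator, was among the members that rose, by 1.46 ± 0.054.

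Surface proteins of fibroblasts fell in 12 of 18, with 1 that rose. Pdgfra, a receptor of platelet-derived growth factor, was at 967, 976 and 947 CPM at day 8 and at 9.39, 8.32 and 9.68 CPM in CiPC. The MEF level was 9.01 CPM, close to that in CiPC. Ly6a, the stem cell antigen Sca-1, changed by -7.90 ± 0.085, Thy1 by -6.30 ± 0.073 and Cd34 by -6.03 ± 0.077. Cdh2, N-cadherin, which retinal and other neural cells also use, rose from 48.2 ± 0.568 to 1077 ± 23.3 CPM. Outside the list, Agtr2, an angiotensin receptor, fell from 1696 ± 160.4 to 0.616 ± 0.312 CPM and Capn6, a calpain relative, changed by -9.30. Agtr2 was at 0.351 CPM in MEF and 2029 CPM at day 5, and Capn6 at 64.2 and 580 CPM. Mesenchymal transcription factors followed, and 15 of the 22 in the table fell while 0 rose. Tbx15, a T-box factor of dermal fibroblasts, fell from 143 ± 4.38 to 1.11 ± 0.0324 CPM, Tbx18 changed by -4.50, Prrx1, a limb mesenchyme homeobox factor, by -4.39 and Twist2 by -4.36.

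Hox genes, which record position along the body and which anterior neural tissue does not express, were near 0 in CiPC. Of 35 found, 27 were tested and all 27 fell, since a member could pass the filter only through its day 8 level. Their summed level was 214 to 227 CPM at day 8 and 0.473 to 1.04 CPM in CiPC, and 18 of the 35 were at 0 in every CiPC library. Hoxa10 was at 38.1, 32.7 and 40.2 CPM at day 8 and listed at 0 in all CiPC libraries, and Hoxa11 was at 16.2, 16.8 and 17.5 CPM and likewise listed at 0. Hoxa9 fell from 21.2 ± 3.36 to 0.00561 ± 0.00971 CPM and Hoxc6 changed by -4.08. In MEF, Hoxa10 was at 13.2 CPM and in day 5 cells at 51.7 CPM.

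Adipocyte genes were high at day 8, and all 19 in the table fell, beside 16.6% of all genes. The median change was -5.34, and the summed level went from 9461 to 10050 CPM down to 289.5 to 293.5 CPM. At day 8 all 19 had a mean of at least 1 CPM, and in CiPC 10 had. A member near 0 in CiPC passed the filter through day 8 alone and could be called only as a fall. Fabp4, the fatty acid carrier of adipocytes (chr3:10204088-10208576, minus strand), was at 2388, 2760 and 2431 CPM at day 8 and at 1.23, 1.94 and 1.64 CPM in CiPC (change -9.93 ± 0.11). Its MEF level was 3.36 CPM and its day 5 level 228 CPM. Pparg, the nuclear receptor that drives fat cell differentiation, was at 31.2, 32.8 and 30.3 CPM and then at 0.577, 0.589 and 0.753 CPM. Each day 8 library lay above each CiPC library for both genes. Car3, a carbonic anhydrase of fat and muscle, changed by -9.29, Plin1, the lipid droplet coat perilipin, by -7.72 and Lpl, lipoprotein lipase, by -6.69. Ucp1, the uncoupling protein of brown fat, chosen after its values were seen, was at 119.8 ± 2.65 CPM at day 8 and at 0.259 ± 0.0593 CPM in CiPC, with 0.0502 CPM at day 5. In the fatty acid list 12 of 25 fell and 2 rose, led by Pdk4, the starvation-induced kinase of pyruvate dehydrogenase, from 112 ± 7.78 to 0.485 ± 0.183 CPM. Acacb, a mitochondrial acetyl-CoA carboxylase, changed by -4.62, Scd1, a desaturase, by -4.06 and Cpt1b, a fatty acid importer of mitochondria, by -3.07. Elovl5 and Scd2, which elongate and desaturate fatty acids in many tissues, rose by 1.45 ± 0.077 and 1.22 ± 0.053.

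Skeletal muscle genes fell in 14 of 14, and their summed level went from 627 to 681 CPM at day 8 to between 12 and 13.5 CPM in CiPC. All 14 had a mean of at least 1 CPM at day 8 and 5 in CiPC. Members near 0 in CiPC could therefore be called only as falls, and 16.6% of all genes were lower. Myh3, embryonic myosin, fell from 174 ± 7.17 to 0.502 ± 0.0953 CPM, Myl1, a myosin light chain, changed by -6.15, Acta1, skeletal actin, by -5.39 and Tnnc2, a troponin, by -4.81. Cartilage genes moved the other way, with 5 of 9 that rose and 0 that fell. Beside Col9a1 these included Col2a1, of type II collagen, from 0.408 ± 0.0987 to 58.5 ± 10.6 CPM, Spp1, osteopontin, by 2.33 ± 0.076, and Sox9, a factor of cartilage and of retinal progenitors and glia, by 1.98 ± 0.20. Acan, the cartilage proteoglycan aggrecan, singled out after its value was seen, reached at most 0.237 CPM in CiPC.

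Smooth muscle contractile genes were higher in CiPC, in contrast to the rest of the mesenchymal lists. Among 14 genes there were 9 that rose, 3 that fell and 2 that passed neither way, and the summed level went from 822 to 862 CPM at day 8 to 4863 to 5066 CPM in CiPC. Tagln, transgelin (chr9:45929619-45936058, minus strand), was at 8.36, 10.4 and 6.57 CPM at day 8 and at 977, 939 and 826 CPM in CiPC (change 6.61 ± 0.14, adjusted p = 1.05e-09). Acta2, smooth muscle actin, was at 71.1, 70.5 and 75.6 CPM and then at 2056, 2021 and 2012 CPM. In both, the groups were far apart, and MEF stood above CiPC, at 3715 and 6741 CPM. Myl9, a regulatory myosin light chain, changed by 4.95 ± 0.14 and Cnn1, calponin, by 3.56 ± 0.13. Des, desmin, fell from 63.3 ± 7.66 to 0.721 ± 0.107 CPM, Tpm2, a tropomyosin, changed by -1.97 and Synpo2 by -1.27. A CArG box, the site of serum response factor, was searched in the same upstream windows, because contractile genes are known for it. It was found in 1 of 11 windows (9.09%) of the 10 contractile genes with a window and in 1.47% of all windows. That window is of Myl9 (chr2:156775214-156775419, plus strand, GRCm38.p6, from RefSeq), with the match in capitals beginning 161 bases before the RefSeq start. It is shown as the only window with a match, and a link to the gene's rise of 4.95 was not tested.
Myl9: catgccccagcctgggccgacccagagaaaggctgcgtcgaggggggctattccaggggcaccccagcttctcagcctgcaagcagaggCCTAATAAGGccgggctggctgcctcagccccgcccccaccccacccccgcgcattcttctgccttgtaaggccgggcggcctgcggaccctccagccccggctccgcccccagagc

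Genes that respond to TGF-beta and to the YAP coactivator, which also respond to cell tension, rose in 9 of 20, fell in 4 and did not pass in 7. Of all genes, 15.2% were higher and 16.6% lower. Ctgf, connective tissue growth factor, was at 5.57, 6.99 and 6.10 CPM at day 8 and at 325, 329.9 and 347 CPM in CiPC (change 5.54 ± 0.084). Its values did not overlap between the groups, and its MEF level, 2385 CPM, was higher again. Id1, a helix-loop-helix inhibitor induced by BMP, changed by 2.48 ± 0.12 and Skil, a SMAD corepressor, by 2.38 ± 0.13. Tgfbr2, the type II receptor itself, was at 522, 467 and 539 CPM at day 8 and at 8.42, 7.52 and 7.83 CPM in CiPC. Grem1, a BMP antagonist, changed by -2.05 and Tgfbi, a secreted target, by -1.77.

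Inflammatory genes of the intermediates fell. In the acute phase and complement list 18 of 20 fell and 2 rose, with a median change of -3.83. Saa3, serum amyloid A3 (chr7:46711998-46715700, minus strand), was at 33952, 37592 and 36867 CPM at day 8 and at 13.5, 14.3 and 17.0 CPM in CiPC (change -11.15 ± 0.087, adjusted p = 3.56e-11). MEF held 3.26 CPM and day 5 cells 12179 CPM. C3, the central complement protein, fell from 2521 ± 152 to 4.95 ± 0.859 CPM, C1s1, a complement protease, changed by -8.58 and Serpina3n, a protease inhibitor, by -7.52. Lcn2, which binds iron-carrying siderophores, was at 57.6, 57.2 and 63.0 CPM at day 8 and at 399, 370.3 and 359 CPM in CiPC, and Cp, the copper ferroxidase ceruloplasmin, rose from 177 ± 13 to 3211 ± 348 CPM. Some serum amyloid genes have near-identical copies, so the split of reads among those is uncertain. Whether it touches Saa3 was not tested.

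Among chemokines and cytokines 7 of 21 rose, 9 fell, 4 did not pass and 1 was under the filter, beside 15.2% and 16.6% of all genes. Cxcl12, a stromal chemokine, was at 1359, 1334 and 1343 CPM at day 8 and at 12.3, 10.5 and 9.95 CPM in CiPC, and Ccl8 changed by -5.61, Ccl11 by -5.23 and Ccl7 by -4.01. Ccl20 was listed at 0 in every day 8 library and at 31.9, 33.8 and 36.1 CPM in CiPC. Lif, leukaemia inhibitory factor, rose from 7.94 ± 1.03 to 162 ± 7.19 CPM and Il11, a related cytokine, by 2.73 ± 0.19. Interferon-stimulated genes fell in 7 of 19 and rose in 0, beside 16.6% and 15.2% of all genes. After rescaling to equal sums 4 fell. Ifit3 changed by -3.28, Ifit1 by -2.65, Isg15 by -2.34 and Ifi44 by -2.33. Of the NF-kB subunits and feedback genes 3 of 17 fell, 1 rose and 12 did not pass, shares near those of all genes. Ikbke, a kinase of the pathway, changed by -3.97, Birc3 by -2.69 and Bcl3 by -2.29, and Nfkbiz, an inducible cofactor, rose by 1.66 ± 0.063. In antigen presentation 3 of 12 fell and 2 rose, beside 16.6% and 15.2% of all genes. H2-T23 changed by -3.43, H2-K1 by -1.16 and H2-D1 by -1.11, while Erap1 rose by 1.67 ± 0.091 and Cd74 by 1.24 ± 0.11. H2-K1 (-0.87) and H2-D1 (-0.82) lost their 2-fold size after rescaling.

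Lists of signals that shape the eye held members that moved either way, and their counts stand beside 15.2% of all genes higher and 16.6% lower. In retinoic acid handling, on which eye formation depends, 5 of 16 rose, 8 fell and 3 did not pass. Cyp26a1, which degrades retinoic acid, was listed at 0, 0 and 0.0492 CPM at day 8 and at 15.9, 18.9 and 18.1 CPM in CiPC, whereas Cyp26b1, its paralogue, was at 29.3, 24.6 and 29.1 CPM and then at 0.423, 0.319 and 0.471 CPM. The paralogues moved in opposite directions. The same held for the synthetic enzymes Aldh1a1, from 35.5 ± 0.413 to 642 ± 55.5 CPM, and Aldh1a2, from 31.3 ± 1.26 to 2.08 ± 0.409 CPM. Rdh10, which makes retinaldehyde, rose by 2.62 ± 0.12, and the binding proteins Crabp2 and Crabp1 changed by -5.03 and -2.68. In the Hedgehog list 5 of 11 fell and 2 rose, the rise being near the share of all genes. Gas1, a coreceptor, changed by -2.78, Gli2, an effector, by -2.72, and Boc by -1.84, while Ptch1, receptor and target, rose from 13.5 ± 1.32 to 71.8 ± 2.09 CPM and Cdon by 1.23 ± 0.053. In the insulin-like growth factor axis 8 of 16 fell and 5 rose. The ligand Igf2 fell from 6995 ± 402 to 78.2 ± 7.06 CPM, Igfbp5 changed by -5.13, Igf1 by -4.82 and Igfbp6 by -3.47, and the receptors Insr and Igf1r and the adaptor Irs1 rose by 1.97 ± 0.07, 1.52 ± 0.052 and 1.36 ± 0.11.

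Of the Wnt genes 3 of 20 rose, 2 fell, 13 did not pass and 2 were under the filter, near the 15.2% and 16.6% of all genes, and after rescaling 5 rose. Dkk3, also a Müller glia gene, rose from 145 ± 5.54 to 768 ± 10.4 CPM, Tcf7 by 2.39 ± 0.12 and Lef1, both DNA-binding effectors, by 1.38 ± 0.11. Sfrp1, a secreted antagonist like Sfrp2, changed by -2.86. Axin2, a target and brake of the pathway, was at 8.52, 6.24 and 10.4 CPM at day 8 and at 5.54, 6.22 and 3.27 CPM in CiPC. The ranges nearly touched, and the change of -0.65 ± 0.23 was under 2-fold (adjusted p = 0.0282). Immediate early genes rose in 8 of 21 and fell in 6, beside 15.2% and 16.6% of all genes. Fosb rose from 1.37 ± 0.302 to 68.3 ± 4.17 CPM, Egr3 by 2.51 ± 0.21, Atf3 by 2.15 ± 0.11 and Ier3 by 1.96 ± 0.11. Sik1 and Pde4b, which damp cAMP signalling, changed by -2.3 and -2.02, and Egr2 by -1.81.

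In the mitosis list 5 of 22 rose and 0 fell, against 15.2% and 16.6% of all genes, with 19 higher when no fold was asked, 8 higher under quantile normalization and 9 after rescaling. Kif23, a kinesin of cytokinesis, rose by 1.82 ± 0.071, Foxm1, which switches on mitotic genes, by 1.60 ± 0.074, Cenpf by 1.58 ± 0.26 and Bub1 by 1.15 ± 0.12. Mki67, the proliferation marker, was at 209, 222 and 202 CPM at day 8 and at 380.3, 407 and 434 CPM in CiPC. Its change of 0.94 ± 0.067 was just short of 2-fold and was 1.15 under quantile normalization, while P5 rods held 4.48 CPM. Of the replication genes 21 of 23 did not pass, Uhrf1 rose by 1.01 ± 0.091 (0.95 to 0.98 without day 8 replicate 2, CiPC replicate 1 or CiPC replicate 2) and Ccne1, cyclin E1, changed by -1.37. Among cell cycle inhibitors, D cyclins and p53 targets 9 of 20 fell and 2 rose. Cdkn1a, the inhibitor p21, was at 329.6, 342 and 349 CPM at day 8 and at 75.0, 75.7 and 75.0 CPM in CiPC. Cdkn1c, the inhibitor p57, changed by -3.80, Pmaip1, the apoptosis factor Noxa, by -3.19 and Cdkn2a by -2.48. Ccnd1, cyclin D1, which retinal progenitors need, rose from 22.4 ± 3.95 to 843 ± 57.1 CPM and Cdkn1b, p27, by 1.40 ± 0.068.

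The shares of chromatin genes that rose stand beside 15.2% of all genes. Of the histone deacetylases and DNA methylation enzymes 4 of 20 rose and 0 fell, namely Hdac9 from 3.3 ± 0.277 to 23.2 ± 0.0954 CPM, Hdac5 by 2.05 ± 0.13, Tdg, a glycosylase of demethylation, by 1.03 ± 0.066 and Uhrf1. Without CiPC replicate 2 the count was 2, since Tdg (0.98) and Uhrf1 (0.98) were then under 2-fold, and it was 2 with a pseudocount of 5. In the Polycomb and remodelling list 4 of 18 rose and 0 fell, with 7 higher after rescaling and 2 with a pseudocount of 5. Chd7, a remodeller needed in eye and ear development, rose most, from 14.3 ± 2.38 to 120.0 ± 13.1 CPM. Smarcd3 rose by 1.48 ± 0.09, Cbx7 by 1.25 ± 0.18 and Ezh2 by 1.02 ± 0.10. Ezh2 was under 2-fold without day 8 replicate 3 (0.98) or CiPC replicate 3 (0.91). In the lamina and heterochromatin list 4 of 18 rose and 1 fell. Hmga2 and Hmga1, chromatin proteins of immature cells, rose by 3.42 ± 0.082 and 3.06 ± 0.15, with Hmga2 at 694 CPM in MEF, 9.49 CPM at day 8 and 112 CPM in CiPC. Lmnb1, lamin B1, rose by 2.04 ± 0.065 and Cbx3 by 1.26 ± 0.074, and Syne1, of the nuclear envelope, changed by -1.46. Of 6 pluripotency genes found, 3 fell and 3 were under the filter. Pou5f1, Oct4, was at 10.5, 10.8 and 11.4 CPM at day 8 and at 0.131, 0 and 0.0292 CPM in CiPC, with 0 CPM in MEF. Klf4 changed by -2.02 and Myc by -1.34.

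The counts of the metabolic and technical lists below stand beside 15.2% of all genes higher and 16.6% lower. In glycolysis 5 of 23 rose and 3 fell, shares near those of all genes. Aldoc, the brain aldolase, rose from 0.801 ± 0.31 to 22.4 ± 2.99 CPM, Eno1, enolase 1, by 2.82 ± 0.092, Slc2a1, the glucose transporter GLUT1, by 1.83 ± 0.15 and Hk1, the hexokinase of neurons, by 1.44 ± 0.062. Eno1 has a near-identical copy, so its share of reads is uncertain. Slc16a1, a lactate transporter, changed by -2.71, Pfkfb3 by -1.56 and Ldhb by -1.2. For the respiratory chain 3 of 28 nuclear genes fell (Cycs by -1.05, Ndufv1 by -1.04 and Uqcrh by -1.02) and 0 rose. The number that fell was 1 without CiPC replicate 1 and 0 after rescaling. Of the 13 mitochondrially encoded genes 0 met both limits in limma, though 13 were lower at an adjusted p under 0.05, and 2 rose under quantile normalization. Cholesterol synthesis had 3 of 24 that rose and 2 that fell, against 6 and 1 after rescaling. With a pseudocount of 5 these counts were 1 and 0. Among them Mvd, which acts on mevalonate diphosphate, changed by 1.15 ± 0.18, Idi1, an isomerase, by 1.02 ± 0.087 and Hsd17b7, a later enzyme, by -1.01. Without day 8 replicate 1 or CiPC replicate 1 the number that fell was 1, as Hsd17b7 was then at -0.93 and -0.99. Mvd was at 0.98 without day 8 replicate 2, and Idi1 at 0.96 without day 8 replicate 3 or CiPC replicate 3. Antioxidant genes fell in 7 of 21 and rose in 2, and after rescaling in 4 and 4. Gpx3, a secreted glutathione peroxidase, fell from 475 ± 12.5 to 5.12 ± 0.483 CPM, Sod2, of mitochondria, changed by -2.80, Cat, catalase, by -1.89 and Slc7a11, a cystine importer, by -1.55, while Txnrd1 and Gclm rose by 1.38 ± 0.05 and 1.22 ± 0.088. Metal handling fell in 7 of 12 and rose in 2. Slc39a8, a zinc and manganese importer, changed by -4.20, Slc40a1, the iron exporter ferroportin, by -4.03, Steap3 by -2.44 and Slc39a14 by -2.05, and Atp7b and Slc30a1 rose by 1.54 ± 0.18 and 1.19 ± 0.10. Of the stress response genes 3 of 19 fell, near the 16.6% of all genes (Ddit4 by -2.52, Sesn2 by -1.31 and Xbp1 by -1.003). Genes for ribosomal proteins, whose pseudogene copies are nearly identical, fell in 12 of 20, led by Rps19 (-1.77), but in only 2 of 20 under quantile normalization or rescaling. Of 14 housekeeping genes 10 did not pass (2 rose and 2 fell, against 5 and 1 under quantile normalization), Ywhaz and Actb rose by 1.47 ± 0.076 and 1.10 ± 0.098, and Gusb and Rpl13a changed by -1.43 and -1.36.

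Markers of cell types that the cultures might hold beside the reprogrammed cells also moved, and their counts stand beside 15.2% of all genes higher and 16.6% lower. Of 16 macrophage and leukocyte genes 6 rose, 2 fell, 6 did not pass and 2 were under the filter. Their summed level was 155 to 169 CPM at day 8 and 247 to 274 CPM in CiPC. Ctss, a lysosomal protease, rose from 1.16 ± 0.184 to 20.5 ± 1.14 CPM, Adgre1, the F4/80 antigen, by 1.89 ± 0.13, Tyrobp by 1.77 ± 0.10 and C1qa by 1.20 ± 0.19, while Mrc1 changed by -1.88 and Cd14 by -1.64. Of the 16 macrophage and leukocyte genes, 12 had a mean of at least 1 CPM at day 8 and 14 in CiPC. With a pseudocount of 5, 2 rose and 0 fell. Cx3cr1 and Aif1, the 2 under the filter and named after their values were seen, reached at most 0.993 and 1.13 CPM in a CiPC library. Endothelial genes had 3 of 11 that rose and 1 that fell, and their sum went from 32.8 to 41.7 CPM to 658 to 708 CPM, nearly all from Kdr, a receptor of vascular endothelial growth factor that retinal progenitors also make. Kdr was at 6.00, 5.87 and 6.60 CPM at day 8 and at 598, 624 and 654 CPM in CiPC. Flt1 rose by 3.45 ± 0.092, Emcn by 1.45 ± 0.15 and Tek changed by -1.89, and the defining markers Pecam1, Cdh5 and Cldn5 reached at most 0.925, 1.15 and 0.115 CPM in CiPC. Among epithelial genes 7 of 8 were under the filter, and Cdh1, E-cadherin, rose to 2.29 ± 0.283 CPM. Pigment epithelium had 1 of 10 that rose, Dct, to 3.33 ± 0.376 CPM, and 1 that fell, Mitf (-1.94), and Tyr stayed at or under 0.0706 CPM in CiPC. Dct was just past 2-fold and fell short of it without day 8 replicate 1, 2 or CiPC replicate 2, 3 (0.98 to 0.99). Lens crystallin genes rose in 3 of the 4 found, Cryab, a heat shock protein of many tissues, from 19.6 ± 1.21 to 373 ± 25.3 CPM, and Crybb3 and Crybb1 by 1.49 ± 0.17 and 1.37 ± 0.14. Of 8 oligodendrocyte and Schwann genes Cnp and Olig1 rose by 1.85 ± 0.081 and 1.59 ± 0.11, 0 fell and 5 did not pass. Sox10 was under the filter, at no more than 0.0873 CPM in CiPC. No erythroid gene passed the filter, and 3 of 4 were at 0 in every CiPC library. The part of such cells in the results above was not tested.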

How the data were processed

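Gene expression was measured by RNA sequencing of total RNA. The submitters' processing notes name kallisto as the quantifier. Its version, index, build and strand setting were not given in the sources used here, so reads of genes that overlap on opposite strands cannot be separated. In the deposited file each value is a CPM signal, already normalized by the authors by a method that no header or label names. Values are not whole and column sums differ, so depth and the precision it gives are unknown and no count model was fitted. All 33 columns were mapped to samples by title and 0 were left over.

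No further scaling was applied before taking log2(CPM + 1). Genes at 1 CPM or more in at least 3 of the 6 libraries were tested with limma 3.58.1 in R 4.3.3 (1 mean per group, variances moderated along a trend in mean level). Calls were made at a Benjamini-Hochberg adjusted p under 0.05 over all genes tested and a fold of at least 2. Groups came from titles. The comparison, the 59 gene lists and the naming rule were chosen with earlier results of these data known. The symbol of 101 genes repeats, 82 of them with identical values, and lists count each symbol once.

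By the naming rule, anchor genes are given, with the 15 called genes of the largest rise and the 15 of the largest fall (at least 10 CPM on average in a group, no overlap, no predicted names). For each list, up to 4 called members in its main direction and up to 3 against it follow. A few genes meeting this rule are not reported here, and genes chosen after their values were seen are marked. Coordinates come from GENCODE M21 (GRCm38) by gene identifier. On simulated data of 12997 genes, 200 that were well above the filter at day 8 were changed. Of these the test recovered 98.6% at 3-fold and 100% at 5-fold and 10-fold, and it called 0 unchanged genes. The simulation does not cover changed genes near 0 in a group or near 2-fold, nor data in which 31.8% of genes are called. Alternatives covered pseudocount, filter, scaling, variance model, samples in the fit, fold limit, a replicate block and each library left out.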

Additional observations from a re-analysis of the deposited data

How the results depend on the processing

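The counts of 2103 higher and 2289 lower genes stayed within 1.5 times under 16 of 18 alternatives. Without a fold threshold they were 4935 and 5425, and at a fold of at least 4 they were 972 and 1050, as fewer or more genes meet a different limit. With each library left out in turn, and the tested genes kept, the higher genes numbered 2101 to 2129 and the lower 2277 to 2325. With a pseudocount of 5 they were 1459 and 1619, with quantile normalization 2245 and 2148, and after rescaling to equal sums 2793 and 1844. With that pseudocount, which shrinks changes of low genes, the members called were 14 rather than 27 for Hox genes, 4 rather than 8 for cone genes and 5 rather than 9 for rising contractile genes. The day 8 and CiPC libraries share replicate numbers. Deviations of same-numbered libraries from their group means correlated at 0.09, -0.06 and -0.44, and those of other-numbered libraries at -0.505 to 0.523. With 3 libraries per group these values cannot decide whether the numbers pair them. With the replicate number as a block, 2103 genes were higher and 2291 lower. Among the 277 tested genes eligible for naming and reported here, 0 reversed direction under these 18 alternatives. That count is no support, since most of these genes were picked for a change of at least 2-fold in the same data. Alternatives of filter, variance model, samples in the fit, block or fold limit also leave the change itself as it was. At a filter of 5 CPM, 266 of them were compared. Genes near 2-fold, such as Xbp1, Uqcrh, Hsd17b7, Dct and Uhrf1, lost or kept that size with the scaling, the pseudocount or the library left out. Depth is unknown, so low levels carry an unknown counting error.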

Other observations

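Several strong changes lay outside the lists, and the genes here were chosen after their values were seen. Rbp3, the retinoid-binding protein that photoreceptors secrete, was at 0.784, 0.282 and 0.258 CPM at day 8 and at 203, 185 and 164 CPM in CiPC. Slc6a11, a GABA transporter of glia, was listed at 0 in every day 8 library and at 118, 113 and 111 CPM in CiPC. Ndp, the Norrin ligand made by Müller glia, changed by 5.83 ± 0.097, Sox3, a neural progenitor factor, by 5.64 ± 0.16, Dach1, a retinal determination factor, by 6.08 ± 0.10 and Trpm3, a cation channel, by 6.62 ± 0.15. Hbegf, a growth factor, was at 251 CPM in MEF, 1.75 ± 0.15 CPM at day 8 and 90.0 ± 4.76 CPM in CiPC. Epha2, an ephrin receptor, was at 131, 3.55 ± 0.204 and 138 ± 21.3 CPM in the same order. Ckb, brain creatine kinase, spread widely in CiPC, at 1607, 1229.6 and 795 CPM against 24.9, 17.3 and 30.7 CPM at day 8.

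Other genes were high at day 8 and near 0 in CiPC. Draxin, an axon guidance protein, was at 0.429 CPM in MEF, 356 CPM at day 5, 378 ± 13.8 CPM at day 8 and 0.577 ± 0.231 CPM in CiPC. Kera, the corneal proteoglycan keratocan, was at 164, 176 and 152 CPM at day 8 and listed at 0 in all CiPC libraries. Xdh, xanthine dehydrogenase, changed by -7.87, Angptl4, an inhibitor of lipoprotein lipase, by -7.49 and Fgf10 by -7.19. Elovl3 and Pck1, fatty acid elongation and glyceroneogenesis enzymes of fat cells, were at 0.154 and 0.448 CPM at day 5, at 60.7 ± 3.85 and 53.6 ± 1.6 CPM at day 8, and at 0.123 ± 0.0745 and 0.0349 ± 0.0348 CPM in CiPC.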
